A study of Mus musculus with 38 samples.

Results

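RUNX1 peaks that stayed in place when Notch signaling began and that also carried CTCF were examined in Cas9-LP cells, mouse lymphoid progenitor (LP) lines that were established from fetal liver of animals lacking Ebf1 and carrying Cas9 at Rosa26. A site was taken when an LP RUNX1 peak outside annotated promoters overlapped, by at least 1 bp, both a Phase 1 RUNX1 peak and an LP CTCF peak. These constant RUNX1 sites with CTCF numbered 2918 of the 31995 LP RUNX1 peaks, and of the 22883 that lay outside promoters. They were set beside 15102 constant RUNX1 sites without CTCF, 1807 LP-specific RUNX1 sites with CTCF (no Phase 1 RUNX1 peak), and 32987 constant CTCF sites without RUNX1 (outside promoters, in the CTCF lists of both stages and with no RUNX1 peak in either).

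RUNX1 is a DNA-binding factor that pairs with CBFβ, and it acts in lymphoid progenitors and in early T cells as activator or repressor, depending on its partners. CTCF is a zinc-finger protein that recognises a long sequence motif and, together with cohesin, anchors chromatin loops and boundaries. Med12 is a subunit of the kinase module of Mediator, which links bound factors to RNA polymerase, and p300 is an acetyltransferase found at active enhancers.

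LP cells were kept on OP9 stroma, which presents no Notch ligand, and Phase 1 cells were moved to OP9-DLL4 stroma, which presents DLL4, early after Notch stimulation, whereas Phase 2 denotes a later stage of the same culture. All of these cells lacked Ebf1, the factor needed for the B lineage, and carried Cas9, the unguided cultures included. Other cultures received guide RNAs by retrovirus, against Ctcf (sgCTCF) or a control (sgCont) in LP cells, and against Cbfb (sgCbfb), Med12 (sgMed12) or a control in Phase 1 cells. Each of the 17 peak lists combined 2 replicates, so no value per replicate was used, sites were the units counted, and intervals (95% Wilson) and Fisher tests cover counting error only, with no error between cultures.

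The sequence under the sites is shown first, because 2 kinds of recognition string could be found there. Strings were searched on both strands in the 200 bp around a peak centre. The RUNX string was TGTGGTT or TGCGGTT, and the CTCF string was the 12-letter core of the CTCF consensus. Both strings occurred together at 46 of the 2918 sites, and the 3 of these with the highest LP RUNX1 scores lay in an intron of Clic5, in an intron of Blnk (the B-cell adaptor BLNK) and 10.6 kb before the start of Esyt1. Their sequences from the GRCm38 plus strand, chr17:44256660-44256859, chr19:40963099-40963298 and chr10:128536317-128536516, have the matching letters of either strand in capitals:
Clic5: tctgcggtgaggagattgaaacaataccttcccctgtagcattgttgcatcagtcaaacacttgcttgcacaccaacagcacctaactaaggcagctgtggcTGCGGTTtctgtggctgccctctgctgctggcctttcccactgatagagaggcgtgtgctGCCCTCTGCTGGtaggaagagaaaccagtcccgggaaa
Blnk: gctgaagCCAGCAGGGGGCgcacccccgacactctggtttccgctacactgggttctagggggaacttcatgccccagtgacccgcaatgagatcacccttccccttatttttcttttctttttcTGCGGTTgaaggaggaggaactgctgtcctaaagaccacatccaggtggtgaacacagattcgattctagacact
Esyt1: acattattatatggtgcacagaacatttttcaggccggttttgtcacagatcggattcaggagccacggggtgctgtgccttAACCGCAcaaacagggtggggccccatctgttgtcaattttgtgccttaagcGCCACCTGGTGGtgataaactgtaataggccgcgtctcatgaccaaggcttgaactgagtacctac
In the Clic5 window the RUNX string lay on the plus strand and the CTCF string on the minus strand. The Blnk window held both on the plus strand, and the Esyt1 window held both on the minus strand.

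The sites with the highest RUNX1 scores were taken by score alone, whereas the 3 above were chosen for their strings. None of the 8 highest held the CTCF string, and 4 of the 8 held the RUNX string. Over all 2918 sites the shares were 6.72% and 23.4%, and 8 sites are too few for a comparison. At some of the 8 the CTCF centre lay outside the window searched, as at the highest site, where it was 365 bp from the RUNX1 centre. The window at the highest site (chr3:88510096-88510295), the one nearest 4930430J02Rik (chr9:57339922-57340121) and the one in an intron of Itsn1 (chr16:91789826-91790025, annotated as the LTR element ORR1D2) are given with the RUNX string in capitals:
Lmna: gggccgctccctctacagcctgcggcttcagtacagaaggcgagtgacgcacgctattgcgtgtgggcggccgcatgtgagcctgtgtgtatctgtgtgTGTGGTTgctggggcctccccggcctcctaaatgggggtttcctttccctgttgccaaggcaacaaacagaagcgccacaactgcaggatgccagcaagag
4930430J02Rik: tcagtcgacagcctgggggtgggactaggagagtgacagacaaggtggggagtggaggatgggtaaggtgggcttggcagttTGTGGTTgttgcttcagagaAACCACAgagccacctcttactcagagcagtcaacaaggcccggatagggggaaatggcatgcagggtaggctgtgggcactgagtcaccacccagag
Itsn1: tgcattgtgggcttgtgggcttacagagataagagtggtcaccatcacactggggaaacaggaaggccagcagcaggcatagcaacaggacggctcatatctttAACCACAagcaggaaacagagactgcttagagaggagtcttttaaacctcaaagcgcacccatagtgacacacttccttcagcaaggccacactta
The 4930430J02Rik window had the RUNX string once on each strand, both close to the centre. The RUNX string was absent from the 4 windows searched among the 5 highest CTCF sites. It was found at 18.5% of the 999 sites with the strongest CTCF peaks (scores of 159.9 to 2691.9), and 4 windows are too few to differ from that share. The site near Bcan (chr3:87987034-87987233) had the CTCF string, in capitals, whereas the site before Snhg7 (chr2:26646956-26647155), which had the highest CTCF score of these sites, had neither string:
Bcan: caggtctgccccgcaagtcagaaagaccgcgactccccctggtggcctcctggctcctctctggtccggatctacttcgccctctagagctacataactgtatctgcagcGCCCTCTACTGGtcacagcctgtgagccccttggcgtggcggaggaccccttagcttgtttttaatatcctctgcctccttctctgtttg
Snhg7: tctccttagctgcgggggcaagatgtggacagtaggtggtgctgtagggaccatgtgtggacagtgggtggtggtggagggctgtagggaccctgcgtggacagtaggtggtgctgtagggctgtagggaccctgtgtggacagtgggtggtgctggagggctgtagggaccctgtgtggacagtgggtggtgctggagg

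The members were chosen by their presence in 3 lists, so their scores in those lists are a description. The score is the authors' normalized peak score and was read only within a list. The LP RUNX1 score of the sites ran from 15 to 754.0 with a median of 52.95, at the 54.7th percentile of all LP RUNX1 peaks. Constant sites without CTCF had a median of 41.95 and LP-specific sites with CTCF a median of 22.4 (percentiles 45.2 and 17.7). In Phase 1 the median percentile was 56.4 at the constant sites with CTCF and 55.5 at those without.

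CTCF scores of the sites ranged from weak to strong. When all 45388 LP CTCF peaks were divided into 5 quintiles of equal number by score, 622 sites (21.3%) fell into the weakest quintile (score 15 to 26.7), 574 into the next, 389 into the middle, 334 into the fourth, and 999 (34.2%) into the strongest (159.9 to 2691.9). LP-specific sites with CTCF were in the strongest quintile at 72.6% and in the weakest at 3.98%. RUNX1 scores ran the other way among the constant sites, with medians of 61.95 and 66.15 in the 2 weakest CTCF quintiles and of 43.05 and 45.7 in the 2 strongest.

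**Figure D1:**
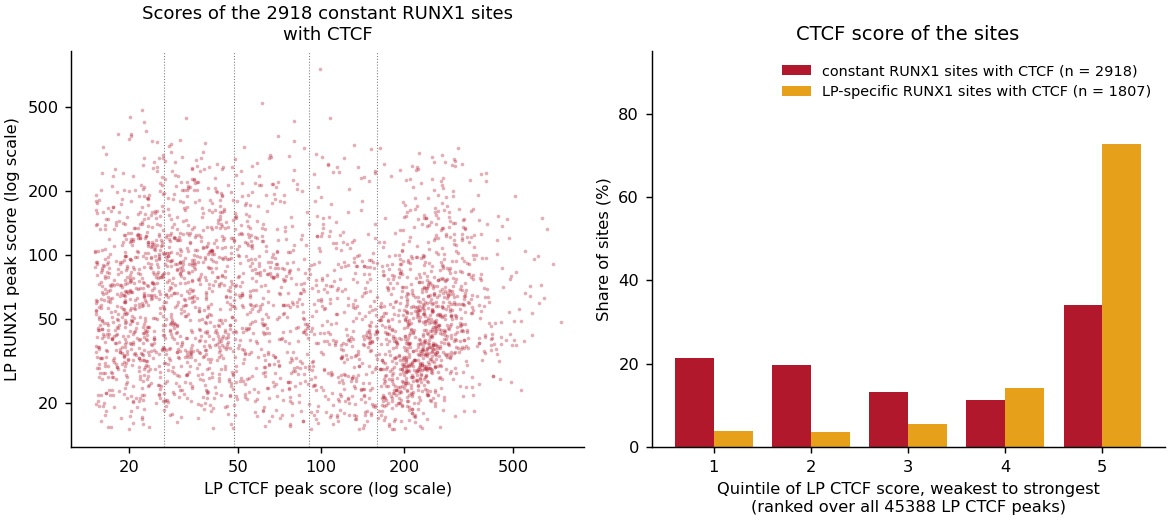
Left, LP RUNX1 peak score against LP CTCF peak score (both log scales) of the 2918 constant RUNX1 sites with CTCF, 1 point per site, with dotted lines at the limits of the CTCF score quintiles. Right, share of sites (%) in each quintile of LP CTCF score for constant sites with CTCF and for LP-specific sites with CTCF. The constant sites fill the weakest (21.3%) and strongest (34.2%) quintiles most, whereas 72.6% of LP-specific sites are in the strongest.

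To describe how the members were bounded by the rule, the overlap of each RUNX1 peak with its CTCF peak was measured. The smallest overlap was 1 bp and the median was 298 bp, and 2453 sites (84.1%) shared at least 200 bp. There were 23 sites with at most 20 bp. On the other side of the threshold, 32 constant sites without CTCF had a CTCF peak at most 20 bp from their edge, and the closest was 1 bp away. Every member had a CTCF peak of its own.

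RUNX1 and CTCF centres were close but not identical. The median distance was 73 bp (quartiles 35 and 126 bp, maximum 370 bp), and 1051 sites (36.0%) had both centres within 50 bp. At LP-specific sites with CTCF the median was 41 bp, and 58.9% had centres within 50 bp. The RUNX1 centre was nearer to the coactivators than to CTCF. It lay a median of 25 bp from the LP Med12 centre and 23 bp from the LP p300 centre, while the CTCF centre lay 80 and 77 bp from them. LP and Phase 1 CTCF centres differed by a median of 9 bp, and LP and Phase 1 RUNX1 centres by 22 bp.

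The displacement had a side. One CTCF string (with up to 1 mismatch) was found around the CTCF centre at 1026 sites, which allowed every peak to be placed relative to the direction of the string. The RUNX1 centre was on the 3′ side of the string, read with its CCA letters first, at 677 of 1026 sites (66.0%, interval 63.0% to 68.8%), with a median position of 42 bp. The p300 centre was there at 641 of 969 sites (66.2%, interval 63.1% to 69.1%) and the Med12 centre at 589 of 900 (65.4%, interval 62.3% to 68.5%). The CTCF centre itself was on that side at 31.8% of sites, with a median position of -7 bp. LP-specific sites with CTCF had the RUNX1 centre on the 3′ side at 71.7% (interval 69.0% to 74.3%) and a median position of 25 bp. These positions were looked at after other values of the sites were known, and they were not tested.

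**Figure D2:**
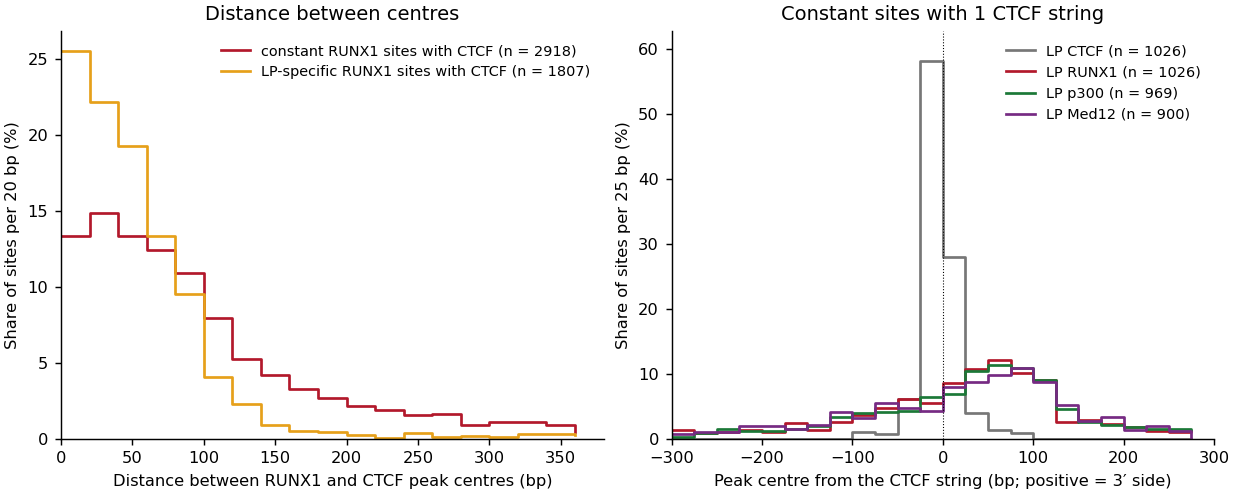
Left, share of sites (% per 20 bp) by the distance in bp between RUNX1 and CTCF peak centres, for 2918 constant and 1807 LP-specific RUNX1 sites with CTCF, whose medians are 73 and 41 bp. Right, share of constant sites with a single CTCF string (% per 25 bp) by the position of 4 kinds of LP peak centre relative to that string, positive on its 3′ side. CTCF centres cluster at the string, and RUNX1, p300 and Med12 centres spread around it with 65.4% to 66.2% on the 3′ side.

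Whether the sites carried recognition strings for both factors was tested next, since sequence was not used to choose them. The RUNX string was found at 684 of 2918 sites (23.4%, interval 21.9% to 25.01%), above the 5.71% of windows 2 kb to either side. It was less frequent than at constant sites without CTCF (32.4%, interval 31.7% to 33.2%), and the odds ratio was 0.637 (Fisher's exact test, p = 9.4e-23, adjusted 2.09e-22 over 20 tests). It was more frequent than at LP-specific sites with CTCF (9.24%, interval 7.99% to 10.7%), with an odds ratio of 3.01 (exact p = 1.44e-37, adjusted 4.8e-37). The constant sites had a median GC share of 53.5%, against 50.0% where CTCF was absent. When sites were matched on GC in 5 classes, an alternative added after seeing the data, the odds ratio against sites without CTCF was 0.740.

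The CTCF string showed the reverse order. Around the RUNX1 centre it was found at 196 constant sites (6.72%, interval 5.86% to 7.68%) and at 417 LP-specific sites with CTCF (23.1%, interval 21.2% to 25.1%), giving an odds ratio of 0.240 (Fisher exact p = 8.88e-58, adjusted 4.44e-57). It was 0.466 when sites were matched on CTCF score, added after seeing the data, and 0.395 when matched on RUNX1 score. The CTCF centre lay over 100 bp from the RUNX1 centre, outside this window, at 34.7% of the constant sites and 10.0% of the LP-specific ones. The part of that distance in the odds ratio was not tested. Flanking windows held the CTCF string at 0.103% and 0.304%, and constant sites without CTCF at 0.0397%. Around the CTCF centre, 293 of the sites (10.0%) held it, compared with 18.8% of constant CTCF sites without RUNX1 (odds ratio 0.481, exact p = 2.34e-36, adjusted 6.69e-36). With 1 mismatch allowed, these shares were 37.8% and 69.7%. The RUNX string around the CTCF centre was found at 507 sites (17.4%, interval 16.0% to 18.8%) and at 12.4% of CTCF sites without RUNX1, an odds ratio of 1.49 (exact p = 1.14e-13, adjusted 2.07e-13).

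The share with the CTCF string differed with CTCF score. In the weakest CTCF quintile 0.643% of the sites had the string (4 of 622), against 8.77% of CTCF sites without RUNX1 in that same quintile. In the strongest quintile the shares were 24.3% (interval 21.8% to 27.1%) and 33.0%. With 1 mismatch the sites went from 10.8% in the weakest quintile through 15.9%, 27.0% and 43.1% to 69.8% in the strongest, whereas CTCF sites without RUNX1 went from 64.4% to 77.6%. The sites held the string less often than CTCF peaks without RUNX1 in each quintile, which was not tested by quintile, and the latter were required to have CTCF in both stages. With the sites limited to CTCF peaks also found in Phase 1, an alternative added after seeing the data, 12.3% held the string around the CTCF centre, an odds ratio of 0.603 against CTCF sites without RUNX1. The RUNX string was found at 27.8% of sites in the weakest quintile (interval 24.4% to 31.5%) and at 18.5% in the strongest (interval 16.2% to 21.0%).

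**Figure D3:**
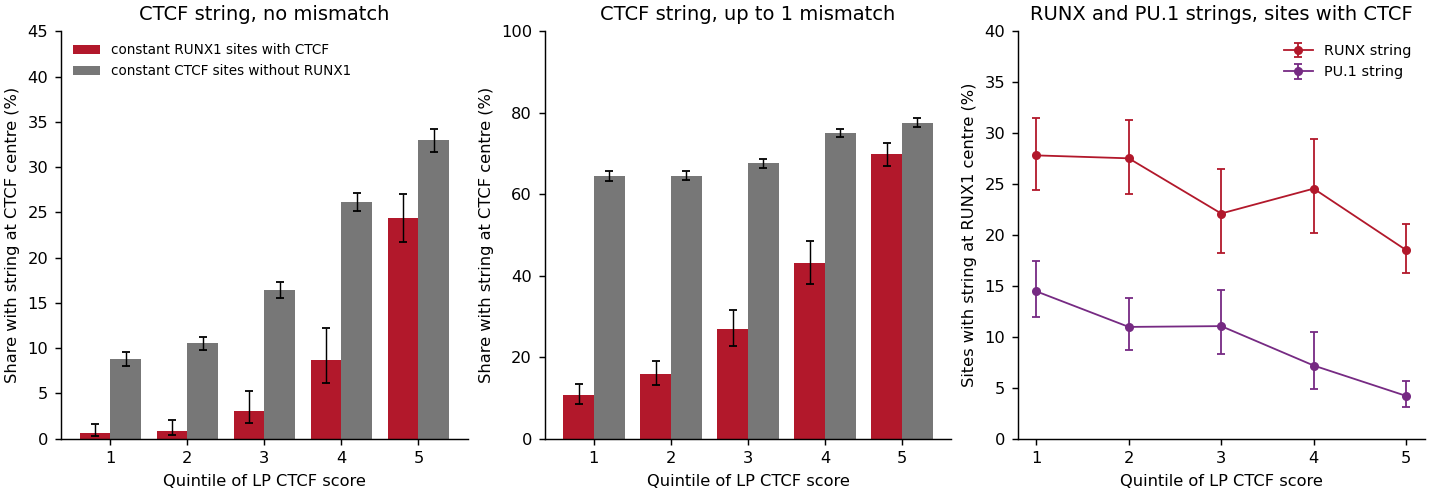
Left and middle, share (%) of constant RUNX1 sites with CTCF and of constant CTCF sites without RUNX1 that hold the CTCF string around the CTCF centre, by quintile of LP CTCF score, without mismatch and with up to 1. Right, share (%) of constant sites with CTCF that hold the RUNX or PU.1 string around the RUNX1 centre. Bars and points are shares and error bars are 95% Wilson intervals, and the CTCF string goes from 0.643% to 24.3% across quintiles at the RUNX1 sites.

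Other strings were examined at the same centres. The PU.1 string GAGGAAGT, for the progenitor factor PU.1, was found at 262 sites (8.98%, interval 8.00% to 10.1%; flanks 1.30%) and at 12.8% of constant sites without CTCF, an odds ratio of 0.672 (Fisher exact p = 2.73e-09, adjusted 4.2e-09). It went from 14.5% in the weakest CTCF quintile to 4.204% in the strongest. The AP-1 string (TGACTCA or TGAGTCA) was found at 6.75% of sites (flanks 3.58%). The string GTGGGAA of RBPJ, the DNA-binding partner of the Notch1 intracellular domain, was found at 4.80%, with an interval of 4.08% to 5.63% that held the flanks' 4.23%. Only 42 sites had RUNX and PU.1 strings together, and 2084 sites (71.4%) had neither the RUNX nor the CTCF string.

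No difference with the RUNX string was detected in centre distance or coactivators. The RUNX string was found at 22.7% of the 1014 sites with centres over 100 bp apart and at 23.9% of the 1051 sites with centres within 50 bp (odds ratio 0.935, Fisher exact p = 0.532, adjusted 0.652). LP p300 was present at 95.3% of sites with the RUNX string and 95.7% without it (odds ratio 0.915, exact p = 0.67, adjusted 0.705). Phase 1 Med12 was present at 86.0% and 86.2% (odds ratio 0.979, exact p = 0.899).

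CTCF itself was usually still there in Phase 1. A Phase 1 CTCF peak overlapped 2368 of the sites (81.2%, interval 79.7% to 82.5%) and 1717 of the LP-specific sites with CTCF (95.02%, interval 93.9% to 95.9%), giving an odds ratio of 0.226 (Fisher exact p = 8.48e-47, adjusted 3.39e-46). This difference went with CTCF score. Matched on 5 classes of LP CTCF score, added after seeing the data, the odds ratio was 1.27 (Mantel-Haenszel chi-square test, p = 0.123), on the other side of 1. In the weakest quintile 35.5% of the constant sites had a Phase 1 CTCF peak (interval 31.9% to 39.4%), then 78.6%, 96.1%, 98.2% and 99.5% in the strongest. Scores in the weakest quintile were 15 to 26.7, and the Phase 1 CTCF list began at 16.1. A missing Phase 1 peak there can be a peak under the cutoff.

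The 550 sites without a Phase 1 CTCF peak had a median LP CTCF score of 21.45, near the cutoff, and a median LP RUNX1 score of 77.55. The 2368 sites with such a peak had medians of 118.65 and 47.95. The CTCF string was around the CTCF centre at 2 of the 550 and at 12.3% of the 2368. LP p300 was present at 546 of the 550 (99.3%) and LP Med12 at 540 (98.2%). In Phase 1, Med12 was present at 509 of the 550 (92.5%, interval 90.0% to 94.5%) and at 84.7% of the 2368, and p300 at 91.5% and 91.3%.

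Coactivators were then compared with constant sites that lacked CTCF. LP Med12 overlapped 2669 of the sites (91.5%, interval 90.4% to 92.4%) and 84.8% of those without CTCF, an odds ratio of 1.92 (Fisher exact p = 1.92e-23, adjusted 4.8e-23). In Phase 1 the order turned, with Med12 at 2514 sites (86.2%, interval 84.9% to 87.4%) and at 90.0% of those without CTCF (odds ratio 0.691, exact p = 2.16e-09, adjusted 3.59e-09). Med12 was seen in LP only at 294 sites (10.1%) and in Phase 1 only at 139 (4.76%). At sites without CTCF those shares were 5.83% and 11.04%. Both directions held when sites were matched on RUNX1 score.

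The p300 lists were compared in the same way. LP p300 overlapped 2790 sites (95.6%, interval 94.8% to 96.3%) and 91.7% of constant sites without CTCF (odds ratio 1.96, Fisher exact p = 2.47e-14, adjusted 4.94e-14). Among sites with an LP RUNX1 score of at least 30 this odds ratio was 1.25 (exact p = 0.132). In Phase 1 p300 overlapped 2666 sites (91.4%) and 89.8% (odds ratio 1.20, exact p = 0.00845, adjusted 0.0121). That call was lost when the classes were matched on score, where the odds ratio was 1.00 (Mantel-Haenszel chi-square test, p = 0.974). All 4 coactivator lists had a peak at 2272 sites (77.9%), and none had one at 26.

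LP-specific sites with CTCF, which share the CTCF peak but not the Phase 1 RUNX1 peak, had far fewer coactivators after Notch stimulation. Phase 1 Med12 overlapped 86.2% of the constant sites and 8.63% of the LP-specific ones (interval 7.42% to 10.0%), an odds ratio of 65.9. Phase 1 p300 overlapped 91.4% and 29.1% (interval 27.1% to 31.2%), an odds ratio of 25.8. Fisher p was returned as 0 in both tests. In LP cells the same classes had Med12 at 91.5% and 58.8%, and p300 at 95.6% and 71.8%. Matched on CTCF score, added after seeing the data, the Phase 1 odds ratios were 48.8 and 23.7, and matched on RUNX1 score they were 29.4 and 14.0. The rule required a Phase 1 RUNX1 peak at the constant sites, and the LP-specific class lacked one by definition. The Phase 1 contrast therefore cannot be separated from that choice. LP-specific RUNX1 sites without CTCF (3056) also had few, with Phase 1 Med12 at 17.2% and p300 at 24.0%.

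**Figure D4:**
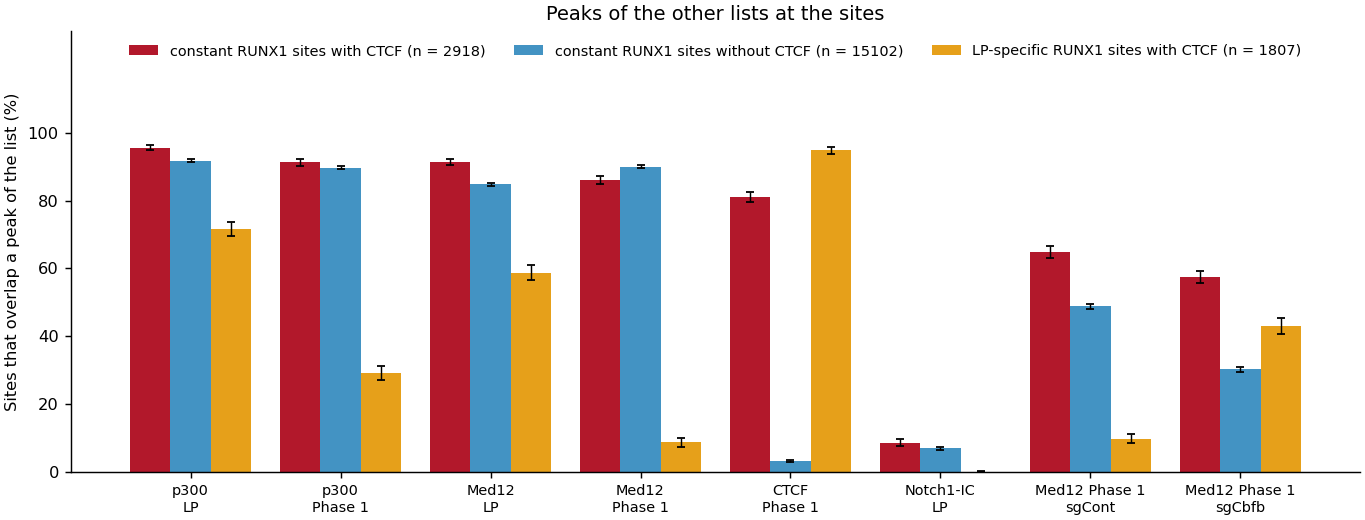
Share of sites (%) that overlap a peak of each of 8 lists, for 2918 constant RUNX1 sites with CTCF, 15102 without CTCF and 1807 LP-specific sites with CTCF, with 95% Wilson intervals. Each of p300 and Med12 is present at 84.8% to 95.6% of constant sites in either stage, with or without CTCF, and LP-specific sites with CTCF have Phase 1 Med12 at 8.63%.

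Within the constant sites, Med12 was less frequent at strong CTCF peaks. LP Med12 was present at 96.3% of sites in the weakest CTCF quintile, then at 93.7%, 92.5%, 84.7% and, in the strongest, 89.0%, so the fourth was lowest. Phase 1 Med12 went from 93.7% (interval 91.5% to 95.4%) to 77.3% (interval 74.6% to 79.8%), so that Med12 was seen in LP only at 4.98% of the weakest and 16.9% of the strongest. RUNX1 scores were lower in the strong CTCF quintiles, and their part in this was not tested.

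Notch1-IC peaks were few at these sites after stimulation. The intracellular domain, Notch1-IC, had a Phase 1 or Phase 2 peak at 27 sites (0.925%, interval 0.637% to 1.34%), compared with 177 constant sites without CTCF (1.17%, interval 1.01% to 1.36%), giving an odds ratio of 0.788 (Fisher exact p = 0.293, adjusted 0.390). Matched on RUNX1 score it was 0.627 (Mantel-Haenszel chi-square test, p = 0.0239). The Phase 1 and Phase 2 lists held only 152 and 352 peaks in all, so a difference of this size was hard to detect. One of the 27 was the site in an intron of Tbc1d1, which had a peak in both lists. In LP cells, where no ligand was supplied, the 1585 peaks of the Notch1-IC antibodies overlapped 248 sites (8.50%, interval 7.54% to 9.57%). They overlapped 6.86% of constant sites without CTCF and 22 of 3056 LP-specific sites without CTCF (0.720%). None of the 1807 LP-specific sites with CTCF had one, a count of 0 for which the Wilson interval reaches 0.212%. Among the constant sites with CTCF the share went from 13.8% in the weakest CTCF quintile to 2.50% in the strongest. RUNX1 scores were lower at LP-specific sites with CTCF and in the strong CTCF quintiles, and their part in these shares was not tested.

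Cultures with guide RNAs gave lists of uneven length. Phase 1 Med12 had 19053 peaks in sgCont and 18099 in sgCbfb cells, in which the partner of RUNX proteins was targeted. Med12 overlapped 1893 of the sites in sgCont (64.9%, interval 63.1% to 66.6%) and 1675 in sgCbfb (57.4%, interval 55.6% to 59.2%). At constant sites without CTCF it went from 48.8% to 30.2%. Of the sgCont Med12 peaks, 1353 of 1893 (71.5%, interval 69.4% to 73.5%) at the sites with CTCF were also in the sgCbfb list, against 3505 of 7369 (47.6%, interval 46.4% to 48.7%) at those without, an odds ratio of 2.76 (Fisher exact p = 3.13e-79, adjusted 2.09e-78). The odds ratio was 2.29 to 2.82 over the alternatives. These counts ask whether the sgCont peak itself overlaps an sgCbfb peak, and counted by site, where a site overlaps both lists, they were 1357 of 1893.

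Counted by site, the share kept was higher at stronger CTCF peaks. Of the sites with sgCont Med12, 242 of 425 in the weakest CTCF quintile were also in the sgCbfb list (56.9%, interval 52.2% to 61.6%), and 535 of 615 in the strongest (87.0%, interval 84.1% to 89.4%). In the strongest quintile more sites had Med12 in sgCbfb (73.9%) than in sgCont (61.6%), with 203 sites in the sgCbfb list alone and 80 in the sgCont list alone. In the weakest quintile it was 34 and 183. LP-specific sites with CTCF had Med12 at 9.63% in sgCont and 43.1% in sgCbfb. A rise was also seen at LP-specific RUNX1 sites without CTCF, from 4.32% in sgCont to 15.4% in sgCbfb. The guide lists have 2 replicates each with no spread between them at hand, so these shares compare the lists.

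**Figure D5:**
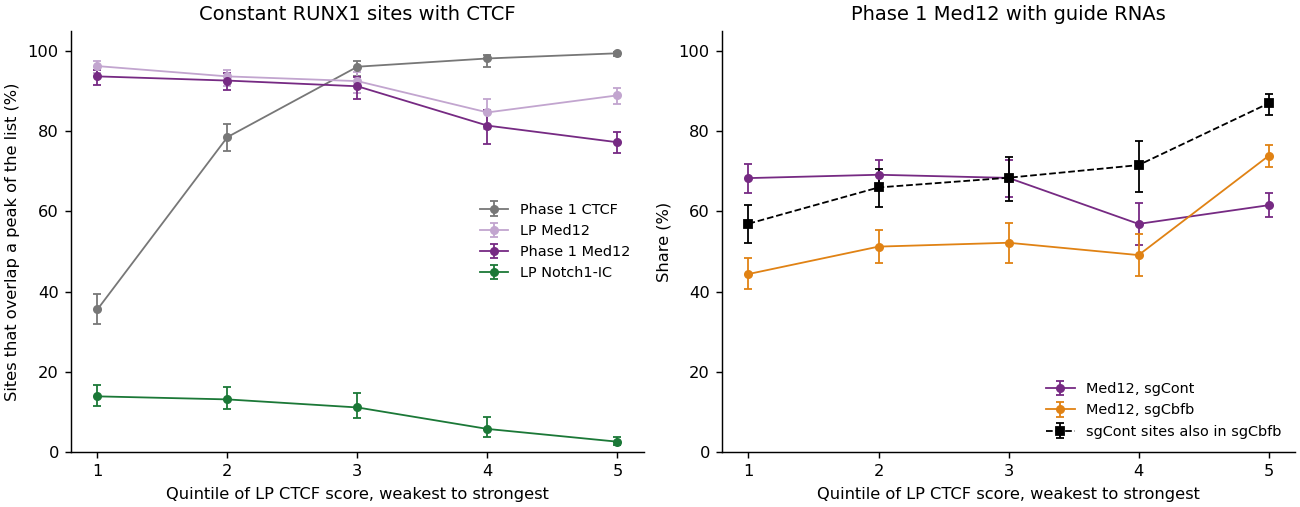
Left, share of the constant RUNX1 sites with CTCF (%) that overlap a Phase 1 CTCF, LP Med12, Phase 1 Med12 or LP Notch1-IC peak, by quintile of LP CTCF score. Right, share with Phase 1 Med12 in sgCont and in sgCbfb cells, and the share of sgCont sites that are also in the sgCbfb list (dashed), all with 95% Wilson intervals. Phase 1 CTCF goes from 35.5% to 99.5%, and Med12 in sgCbfb exceeds sgCont in the strongest quintile (73.9% and 61.6%).

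RUNX1 in sgCTCF cells was limited by short lists, with 975 peaks in sgCont and 874 in sgCTCF. The sgCont list overlapped 125 of the sites (4.28%) and the sgCTCF list 107 (3.67%). Of the sgCont peaks, 76 of 125 at the sites with CTCF (60.8%, interval 52.0% to 68.9%) and 172 of 271 at constant sites without CTCF (63.5%, interval 57.6% to 69.0%) were also in the sgCTCF list, and this difference was not detectable (odds ratio 0.893, Fisher exact p = 0.655, adjusted 0.705). Those counts ask whether the sgCont peak itself overlaps an sgCTCF peak, and counted by site, where a site overlaps both lists, they were 77 of 125. By site, the sites were also split by CTCF score after the values were seen. Of 100 sites in the 3 weaker quintiles, 70 also overlapped the sgCTCF list (70.0%, interval 60.4% to 78.1%), but only 7 of 25 in the 2 stronger quintiles (28.0%, interval 14.3% to 47.6%). The sgCont scores had a median of 22.9 in the former and 26.5 in the latter, whereas over all 125 they had a median of 25 at the 77 sites in both lists and of 22.0 at the 48 in sgCont alone. With 25 sites and no test, this is a description of 2 lists. RUNX1 in Phase 1 cells overlapped 232 sites in sgCont and 274 in sgMed12, and 174 of the 232 were in both (75.0%, interval 69.1% to 80.1%), compared with 747 of 1047 at constant sites without CTCF (71.3%, interval 68.5% to 74.0%).

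The sites lay in introns (1285, 44.0%) and between genes (1263, 43.3%), with 129 in exons. The intergenic share did not differ detectably from that of constant sites without CTCF (43.9%, odds ratio 0.976, Fisher exact p = 0.555, adjusted 0.652). The median distance to the nearest start was 15.6 kb, compared with 20.8 kb without CTCF and 12.5 kb for LP-specific sites with CTCF. CpG islands were annotated at 210 sites (7.20%, interval 6.31% to 8.19%), 2.53% of constant sites without CTCF and 1.38% of LP-specific sites with CTCF. LTR elements were annotated at 163 sites (5.59%), against 10.9% without CTCF and 3.15% in the LP-specific class. B2 SINE elements, a mouse repeat known to carry CTCF motifs, were annotated at 83 sites (2.84%, interval 2.30% to 3.51%), 0.755% of sites without CTCF and 8.41% of LP-specific sites with CTCF.

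Single sites are named by rank of score. Here and below, LP and Phase 1 scores come from separate lists and do not measure a change. The highest LP RUNX1 score, 754.0, belonged to a site 6.84 kb before the start of Lmna, the gene of the nuclear lamins A and C, at chr3:88510026-88510366. It also had the highest Phase 1 RUNX1 score (902.9), but its overlap with the CTCF peak (score 98.6) was only 6 bp and its centres were 365 bp apart. A site 14.8 kb before Zfp395, a zinc-finger gene, in a CpG island at chr14:65343748-65344088, scored 521.5 in LP and 697.3 in Phase 1 and overlapped its CTCF peak (61.1) by 309 bp. The third, at chr5:36089229-36089569 in an intron of Sorcs2, a sortilin-family receptor gene (nearest start Psapl1), scored 483.4 with a CTCF score of 22.2 and an overlap of 30 bp. Near the uncharacterised transcript 4930430J02Rik, 51.0 kb before its start at chr9:57339852-57340192, RUNX1 scored 445.5 in LP and 596.2 in Phase 1, with CTCF at 20.1.

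The next 4 by LP RUNX1 score ranged from 443.4 to 425.6. The site nearest C130026L21Rik (443.4, chr5:111553498-111553838) overlapped its CTCF peak (107.6) by 9 bp. An intron of Rere, which encodes a transcriptional corepressor, held a site at chr4:150566148-150566488 (442.4) with a CTCF score of 32.1. The site 7.83 kb after the start of Pim1, the gene of a serine/threonine kinase, at chr17:29500743-29501083 scored 426.4 with CTCF at 79.5. The Itsn1 site, in an intron of the endocytic scaffold gene that also lies in an Atp5o intron, at chr16:91789756-91790096, scored 425.6 with CTCF at 22.7. All 8 had LP and Phase 1 p300 and Med12, 6 had Phase 1 CTCF, and 6 had a Notch1-IC peak in LP cells. Over all 2918 sites these shares were 77.9%, 81.2% and 8.50%, and 8 sites are too few for a comparison. Of the 8, 3 met CTCF only at the edge of the peak (30 bp of overlap or less).

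A further pair of sites was among the 5 highest by Phase 1 RUNX1 score. The first lay in the 3′ UTR of Cd3d, a subunit gene of the T-cell receptor complex, at chr9:44986456-44986796, 4.84 kb after the start. It scored 370.8 in LP and 491.1 in Phase 1, with a weak LP CTCF peak (18.3), no Phase 1 CTCF peak, and p300 and Med12 in both stages. The other lay in an intron of Tbc1d1, a Rab GTPase-activating protein gene, at chr5:64336779-64337119 and scored 331.6 in LP and 488.6 in Phase 1, with CTCF at 131.8.

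The highest CTCF scores came with modest RUNX1 scores. A site 6.81 kb before Snhg7, a small nucleolar RNA host gene, at chr2:26646886-26647226 had a CTCF score of 745.4 and a LP RUNX1 score of 48.0, with centres 5 bp apart. One site with a CTCF score of 697.7 lay on an unplaced sequence, where no string was searched. In an exon of Gdf15, which encodes a secreted factor of the TGF-β superfamily, at chr8:70629677-70630017, CTCF scored 664.1 and RUNX1 132.8. The site at the transcript end of Bcan, a brain proteoglycan gene, at chr3:87986964-87987304 had 644.8 and 62.3, and that in the 5′ UTR of Acbd4, an acyl-CoA-binding protein gene, at chr11:103102771-103103111 had 633.2 and 148.5. All 5 kept Phase 1 CTCF and had Med12 and p300 in LP, whereas the Acbd4 site lacked Phase 1 Med12 and the Bcan site lacked Phase 1 p300. The 3 sites with both strings had RUNX1 scores of 125.4 (Clic5), 122.3 (Blnk) and 101.8 (Esyt1) and CTCF scores of 284.7, 283.5 and 314.1, and all 3 carried Phase 1 CTCF, Med12 and p300. Of all 999 sites in the strongest CTCF quintile, 99.5% had Phase 1 CTCF, 89.0% LP Med12 and 94.8% LP p300. Phase 1 Med12 was at 77.3% of them and Phase 1 p300 at 90.3%.

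Gene lists were read for sites within 50 kb of the gene body. Of 21938 protein-coding genes, 5521 had such a site (25.2%), and 54.7% had a constant site without CTCF. Among 30 T-lineage genes 14 had a site with CTCF, among 20 progenitor genes 10, among 12 B-lineage genes 4, and among 16 genes of RUNX, CTCF, cohesin and coactivators 9. Constant sites without CTCF were near 29, 18, 12 and 12 of these genes. The lists hold longer genes than average (medians of 24.1 to 70.4 kb against 17.4 kb), longer windows meet more sites, and their part in these counts was not tested.

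Among T-lineage genes the CTCF scores were weak at some and strong at others. The Cd3d site was the one site near Cd3d, Cd3e and Cd3g, the CD3 chain genes, which share a locus. Ets1, a T-cell transcription factor gene, had 3 sites, the highest with an LP RUNX1 score of 119.8 and a CTCF score of 21.9. Notch1, the receptor gene itself, had 2, the higher with 109.6 and 24.2. Cd5, a surface inhibitor of receptor signaling, had 2 (higher 133.3, CTCF 44.6). Cd2, an adhesion receptor gene, had 1 (20.4, CTCF 15.4), and Thy1, a T-cell surface gene, had 2 (higher 58.7, CTCF 78.8). None of the highest sites named here held the CTCF string with 1 mismatch.

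A further 5 T-lineage genes had sites in the strongest CTCF quintile. Gata3, a regulator of T-cell commitment, had 1 site, 10.3 kb after its start, with a LP RUNX1 score of 67.7 and a CTCF score of 197.5, and Med12 was there in LP but not in Phase 1. The same Med12 pattern was found at Il2ra, the CD25 gene, whose intronic site scored 16.8 with CTCF at 242.1. Bcl11b, which marks commitment to the T lineage, had 1 intronic site (19.9, CTCF 225.7). Cd247, the CD3ζ gene, had 1 (35.8, CTCF 232.9), and Cd4, the coreceptor gene, had 2 (higher 69.3, CTCF 319.1). Among the T-lineage genes with no such site within 50 kb were Tcf7, Hes1, Dtx1, Notch3, Lck, Zap70, Ptcra, Rag1, Rag2, Lef1, Satb1, Tox, Lat, Cd28 and Cd8a.

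Progenitor genes included the site with the highest RUNX1 score of the lists after Cd3d. Lyl1, a basic helix-loop-helix factor gene of early progenitors, had 4 sites, the highest at -1.35 kb from its start (annotated as a transcript end) with a LP RUNX1 score of 318.9, a Phase 1 score of 222.2 and a CTCF score of 163.7. Erg, an ETS factor gene, had 4 (highest 123.5, CTCF 27.5), and Bcl11a, a zinc-finger factor gene of lymphoid progenitors, had 3 (highest 94.6 in LP and 36.8 in Phase 1, CTCF 19.1). Cebpa, a myeloid regulator, had 2, the higher with 69.4 in LP, 141.0 in Phase 1 and CTCF at 39.1. As the LP and Phase 1 scores come from separate lists, these pairs do not measure a change. Flt3, a cytokine receptor gene, had 2 (higher 46.7, CTCF 269.3) and so did Cd34, a progenitor surface marker (higher 59.8, CTCF 249.2). Mef2c, Gata2, Myb and Kit, which encode regulators and a receptor of progenitors, had 1 each, with LP RUNX1 scores of 78.3, 30.4, 25.3 and 20.1 and CTCF scores of 26.2, 199.3, 50.8 and 20.7. All 10 highest sites carried p300 and Med12 in both stages, as did 77.9% of all 2918 sites.

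Of the 12 B-lineage genes 4 had a site (33.3%), against 25.2% of all protein-coding genes. Blnk had 4, the highest at -44.8 kb from the gene start, with a LP RUNX1 score of 236.9 and a CTCF score of 20.6. Pax5, which maintains B-cell identity, had 1 (99.1, CTCF 175.9). Foxo1, a forkhead factor gene of early B cells, had 1 (34.2, CTCF 207.9), as did Ebf1, the gene these cells lack (20.4, CTCF 250.3), and neither of the last 2 had Phase 1 Med12. The Ebf1 site also lacked Phase 1 p300.

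Genes of the factors themselves were among those with sites. Runx3 had 1 with a LP RUNX1 score of 191.8, a Phase 1 score of 239.6 and a CTCF score of 372.0, Runx1 had 2 (higher 132.6, CTCF 62.5), and Runx2 had 1 (27.5, CTCF 145.3) without p300 in either stage. Cbfb, the partner gene, had 3 (highest 57.1, CTCF 276.2), and Ctcf had 1 at -39.7 kb from its start (38.0, CTCF 288.5). Ep300, the p300 gene, had 1 (70.7, CTCF 196.9). Among genes of the cohesin ring and its regulators, Smc3 had 1 (17.9, CTCF 214.5), the cohesin loader Nipbl had 1 (26.9, CTCF 170.8), and the release factor Pds5a had 1 (44.9, CTCF 81.1). Of these 9 genes' highest sites, all had a Phase 1 CTCF peak, against 81.2% of all 2918 sites. Those of Runx2 and Smc3 lacked Phase 1 Med12.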

How the data were processed

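ChIP was performed on Cas9-LP cells fixed with disuccinimidyl glutarate and formaldehyde, in 2 replicates per group. Per the submitters' processing notes, the authors used bcl2fastq 1.8.4, Bowtie 1.1.1 and HOMER with mm10, and per the study's methods they called peaks against a control and kept those reproducible between replicates. The authors deposited 1 list per group, in which the peak score is their normalized score and the focus ratio is a fraction; scores below 15 were absent, and the read depth behind each list was not analysed here; scores were read only within a list. Input samples were not analysed here. The nearest gene of a site came from its deposited RefSeq transcript (2912 of 2917 matched to a symbol), and gene bodies from GENCODE M21 of the same build.

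Overlaps needed 1 bp. Centres, strings and distances were computed with Python 3.11.15, pandas 2.3.3, numpy 2.4.6 and pysam 0.24.0, with samtools 1.23.1 for the GRCm38 sequence; 1 member lay outside the named chromosomes and held no sequence. The family held 20 two-sided Fisher's exact tests (scipy 1.17.1) with Benjamini-Hochberg adjustment, and matched odds ratios were Mantel-Haenszel (statsmodels 0.14.6). The code was tested on simulated data. Alternatives were an overlap of 50% of the shorter peak, a minimum score of 30, promoters defined by a 1 kb distance, matching on score, the RUNX string with T only, 1 mismatch in the CTCF string and windows of 100 bp. Sites were named by score (8 by LP RUNX1, 5 by LP CTCF, 5 by Phase 1 RUNX1, 3 with both strings) and by the gene lists, of which some members are not reported here. The sites and lists were chosen with earlier results of these data known.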

Additional observations from a re-analysis of the deposited data

How the results depend on the processing

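No paired analysis was possible because each list combines both replicates of its group, so no replicate could be left out and none of the spread between cultures enters a test. The number of sites was 2539 with an overlap of 50% of the shorter peak, 2316 with a minimum score of 30, 2659 with promoters defined by distance and 2915 when counted in the Phase 1 RUNX1 list. Over 106 alternative tests, 100 kept the direction or stayed without a call on the same side of an unadjusted p of 0.05. Phase 1 p300 against constant sites without CTCF had an odds ratio of 1.07 with the stricter overlap (Fisher exact p = 0.353), 1.09 with a minimum score of 30 (p = 0.366) and 1.00 when matched on score (Mantel-Haenszel chi-square test, p = 0.974). LP p300 had 1.25 with a minimum score of 30 (Fisher exact p = 0.132), and Phase 1 or Phase 2 Notch1-IC had 0.627 when matched on score (Mantel-Haenszel chi-square test, p = 0.0239). Phase 1 CTCF against LP-specific sites turned from 0.226 to 1.27 when matched on CTCF score, which was chosen after seeing the data. Why the calls moved was not tested. Lists from cells with guide RNAs are short for RUNX1, and a missing peak there can be a missed peak.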
